A study of Cricetiscus sungorus with 24 samples.

Results

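The genes described here are the adult alpha globins Hba-a1 and Hba-a2, the adult beta globins Hbb-bs and Hbb-bt, and the genes of both forms of the first enzyme of heme synthesis, Alas2 and Alas1, in the kidney of Djungarian hamsters. They were chosen by name, as 6 genes of the 15960 that the deposited tables list, and each was read from its mouse transcript with the highest total. Experiment 1 listed 5 of the 6 among 9681 genes, without Alas1, and experiment 2 listed all 6 among 15842 genes.

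Hemoglobin, the oxygen carrier of the red cell, is a tetramer of alpha and beta globin chains, each of which holds a heme. Mammalian red cells lose their nucleus when they mature, but young red cells in the circulation, the reticulocytes, still carry globin mRNA, so that RNA of a blood-filled organ such as the kidney includes it. Alas2 encodes the erythroid form of 5-aminolevulinate synthase, the enzyme that starts heme synthesis for hemoglobin, and Alas1 encodes the form that nearly all cells use to make heme for their own enzymes.

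Kidney RNA of 24 hamsters was sequenced as cDNA on nanopore flow cells, 12 libraries in each of a pair of experiments. Experiment 1 used adult males that stayed in a long photoperiod with 16 h of light and 8 h of dark (LP, n = 4) or were moved to a short photoperiod with 8 h of light and 16 h of dark for 12 weeks (SP12wk, n = 4) or 28 weeks (SP28wk, n = 4). Experiment 2 used adult females after 8 weeks in the short photoperiod, given daily intraperitoneal injections on 3 days of vehicle, a mix of dimethyl sulfoxide and saline (SAL, n = 6), or of 18 µg ovine prolactin in that vehicle (PRL, n = 6). The labels name no genetic change. The hamsters were killed 2 to 4 h after lights on by cervical dislocation, then exsanguinated. Perfusion of the kidney is not named in the sources used here, and the amount of blood left in it was not measured. Only the hamsters of experiment 2 were injected, and each experiment had its own flow cell. Sex, injection, flow cell and light history therefore cannot be told apart between the experiments.

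With 1 transcript per gene, libraries held 15688 to 57585 counts in experiment 1 and 174053 to 756523 in experiment 2, and a gene without a read could lie below 52.1 to 191 CPM, its reads relative to the library total, in the former and below 3.97 to 17.2 CPM in the latter, at 3 counts per library. The LP replicate 2 library stood apart from the others. Of the 20 genes outside the globins with most reads in experiment 1, 14 were at their lowest of the 12 libraries there and 2 at their highest. The 14 are not all separate signals, since some have equal reads there. These are Rps27 and Rps27rt (67 each), Cox7c, Cox7c-ps1 and Gm12338 (27 each), and Rpl37 and Rpl37rt (13 each). Globin comparisons with LP are therefore given with and without it. Those of other genes are given with it, and no gene of the lists described below passed the threshold without it either. Reads of kidney tubule genes were present in each library, at a summed level of 1818 to 5826 CPM over the 11 listed genes of 14 in experiment 1 and 13 in experiment 2, with Miox, Lrp2 and Aqp1 among the highest, which fits the labelled tissue. In bulk kidney, fewer cells of a type and less RNA per cell cannot be told apart.

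The members of each globin pair carried nearly the same reads. In experiment 1, Hba-a1 had 2317 reads and Hba-a2 2263, and Hbb-bs had 2222 and Hbb-bt 2216. In experiment 2 the totals were 10086 and 10046 for the alpha pair and 18797 and 18757 for the beta pair. No library separated the members of a pair by more than 12 reads. These genes are near-identical copies in the mouse, and hamster reads were named by mouse transcripts, so that a value cannot be given to 1 copy alone. Hba-a1 and Hbb-bs, the member of each pair with more reads, stand below for alpha and for beta globin, and their sum is called the globin share.

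Globin mRNA was among the most abundant of the kidney libraries. By reads, not corrected for length, Hba-a1 was at position 6, Hba-a2 at 7, Hbb-bs at 8 and Hbb-bt at 10 of the genes of experiment 1. In experiment 2, Hbb-bs was at position 22, Hbb-bt at 23, Hba-a1 at 86 and Hba-a2 at 87. Both ALAS genes were far lower, with Alas1 at position 5408 and Alas2 at 6027 in experiment 2, and Alas2 at 7576 in experiment 1 with a single read.

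Alpha globin overlapped among the photoperiod groups. Hba-a1 took 0.663%, 0.925%, 0.344% and 0.559% of the reads in the 4 LP libraries. It took 0.928%, 1.04%, 0.422% and 1.23% in SP12wk, and 0.921%, 0.676%, 0.708% and 0.438% in SP28wk. The highest library was SP12wk replicate 4 and the lowest LP replicate 3, and SP12wk replicate 3 lay below 3 of the 4 LP libraries. Group means were 0.623% ± 0.241 in LP, 0.904% ± 0.345 in SP12wk and 0.686% ± 0.198 in SP28wk (SD, n = 4). The SD was 28.9% to 38.8% of the mean, beside a counting error of 6.80% to 8.90%.

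Beta globin overlapped as well, with its mean lowest in LP. Hbb-bs took 0.701%, 0.196%, 0.372% and 0.886% of the reads in LP. It took 0.621%, 0.746%, 0.457% and 0.995% in SP12wk, and 0.751%, 0.759%, 0.860% and 0.620% in SP28wk. The LP libraries spanned nearly the whole range, and the SP28wk libraries lay within a narrow part of it. Group means were 0.539% ± 0.312 in LP, 0.705% ± 0.227 in SP12wk and 0.748% ± 0.0984 in SP28wk (SD, n = 4).

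**Figure D1:**
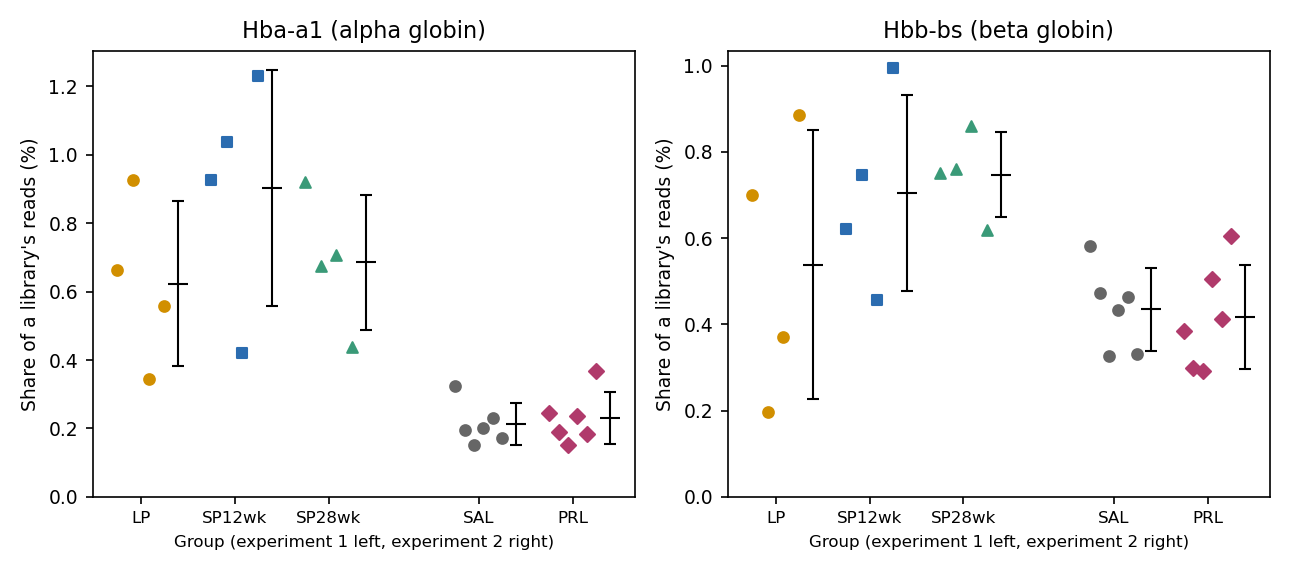
Share of the reads of a library (%) taken by Hba-a1 (left) and Hbb-bs (right), 1 point per library, with the group mean and SD as a black bar. The groups of each experiment overlap, and the 12 libraries of experiment 2 lie between 0.152% and 0.369% for Hba-a1, where those of experiment 1 lie between 0.344% and 1.23%.

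None of the 4 globin genes passed the test between photoperiods. SP12wk was compared with LP to ask what a winter-like photoperiod does, SP28wk with SP12wk to follow the spontaneous return to the summer state, and SP28wk with LP to compare the ends. These comparisons share libraries. Hba-a1 differed from LP to SP12wk by a log2 fold change of 0.74 with a standard error of 0.476 (edgeR quasi-likelihood test, adjusted p = 0.669), and Hbb-bs by 0.47 with a standard error of 0.473 (adjusted p = 0.835). From SP12wk to SP28wk the values were -0.27 for Hba-a1 and 0.23 for Hbb-bs (edgeR, adjusted p = 0.980 for both). From LP to SP28wk they were 0.46 for Hba-a1 (edgeR, adjusted p = 0.892) and 0.70 for Hbb-bs (edgeR, adjusted p = 0.770), so that alpha globin had its highest mean in SP12wk and beta globin in SP28wk. Their copies Hba-a2 and Hbb-bt gave nearly the same values, which repeat the same reads.

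The background of the same fits was low. Of 5086 genes tested, 1 passed an adjusted p of 0.05 between SP12wk and LP (0.0197%), 7 between SP28wk and SP12wk (0.138%) and 11 between SP28wk and LP (0.216%), and none of the 4 globin genes was among them. At an unadjusted p of 0.05 in the same edgeR fits, 7.26%, 6.1% and 8.57% of the genes passed in these comparisons, again with 0 of the 4 globin genes when all libraries were used. Some alternatives put globin genes under the unadjusted level, as given below. Alas2, with 1 read, did not pass the filter of a count in at least 4 of 12 libraries and Alas1 was not listed, so that 4 of the 6 genes were tested.

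Exact permutation tests of the shares gave the same calls. The p-values (two-sided exact permutation test of the mean share, 4 libraries against 4) were 0.229 for Hba-a1 and 0.40 for Hbb-bs between SP12wk and LP, 0.314 and 0.686 between SP28wk and SP12wk, and 0.686 and 0.286 between SP28wk and LP. The smallest p that 4 against 4 allows in this exact test is 0.0286. Without LP replicate 2, Hba-a1 was higher in SP12wk than in LP by 0.382 percentage points in place of 0.281, and Hbb-bs by 0.0519 in place of 0.166. Between SP28wk and LP the differences were 0.164 in place of 0.0628 for Hba-a1 and 0.0948 in place of 0.209 for Hbb-bs.

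Single LP libraries moved the fold changes in both directions. Without LP replicate 2, the log2 fold change of Hba-a1 went from 0.74 to 0.82 (edgeR, unadjusted p = 0.00998, adjusted p = 0.815) between SP12wk and LP and from 0.46 to 0.54 (edgeR, adjusted p = 0.875) between SP28wk and LP. That of Hbb-bs went from 0.47 to 0.14 (edgeR, adjusted p = 0.948) and from 0.70 to 0.35 (edgeR, adjusted p = 0.941). Without LP replicate 4, the library with the highest beta share in LP, Hbb-bs went instead to 0.92 (edgeR, adjusted p = 0.570) and to 1.10 (edgeR, unadjusted p = 0.0261, adjusted p = 0.416). Leaving out SP12wk replicate 4 brought Hbb-bs to 0.17 between SP12wk and LP, and leaving out SP12wk replicate 3 brought Hba-a1 to 1.04 (edgeR, unadjusted p = 0.0464, adjusted p = 0.741). With limma-voom all 4 globin genes had an unadjusted p under 0.05 between SP12wk and LP. The values were 0.73 for Hba-a1 and 0.77 for Hbb-bs (limma-voom, adjusted p = 0.545 for both). Hbb-bs had 1.04 between SP28wk and LP (limma-voom, unadjusted p = 0.00503, adjusted p = 0.148). With the sample number as a covariate (a replicate block), Hbb-bs and Hbb-bt each had 0.95 between SP28wk and LP (edgeR, unadjusted p = 0.0447 and 0.0457, adjusted p = 0.830 and 0.833).

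Globin mRNA of PRL and SAL hamsters differed by less than the spread between animals. The lowest, median and highest share of Hba-a1 were 0.152%, 0.1995% and 0.324% in SAL and 0.152%, 0.213% and 0.369% in PRL. For Hbb-bs they were 0.327%, 0.448% and 0.583% in SAL and 0.293%, 0.398% and 0.606% in PRL. The groups overlapped over nearly their whole range, and the highest library of both genes was PRL replicate 6. Means were 0.213% ± 0.0611 in SAL and 0.230% ± 0.0767 in PRL for Hba-a1, and 0.435% ± 0.0965 and 0.417% ± 0.121 for Hbb-bs (SD, n = 6).

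The fit across genes gave a log2 fold change from SAL to PRL of 0.05 with a standard error of 0.209 for Hba-a1 and of -0.13 with a standard error of 0.190 for Hbb-bs (edgeR, adjusted p = 0.999 for both). None of the 10696 genes tested passed an adjusted p of 0.05 by edgeR (0%), and 522 (4.88%) had an unadjusted p under it, none of them among the 6 genes described here. limma-voom left none of the 6 past the threshold either, nor did DESeq2 for the 4 globin genes, whereas it gave Alas2 and Alas1 no adjusted p. The exact permutation tests of the shares gave p = 0.662 for Hba-a1 and p = 0.777 for Hbb-bs, where 6 against 6 allows 0.00216.

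**Figure D2:**
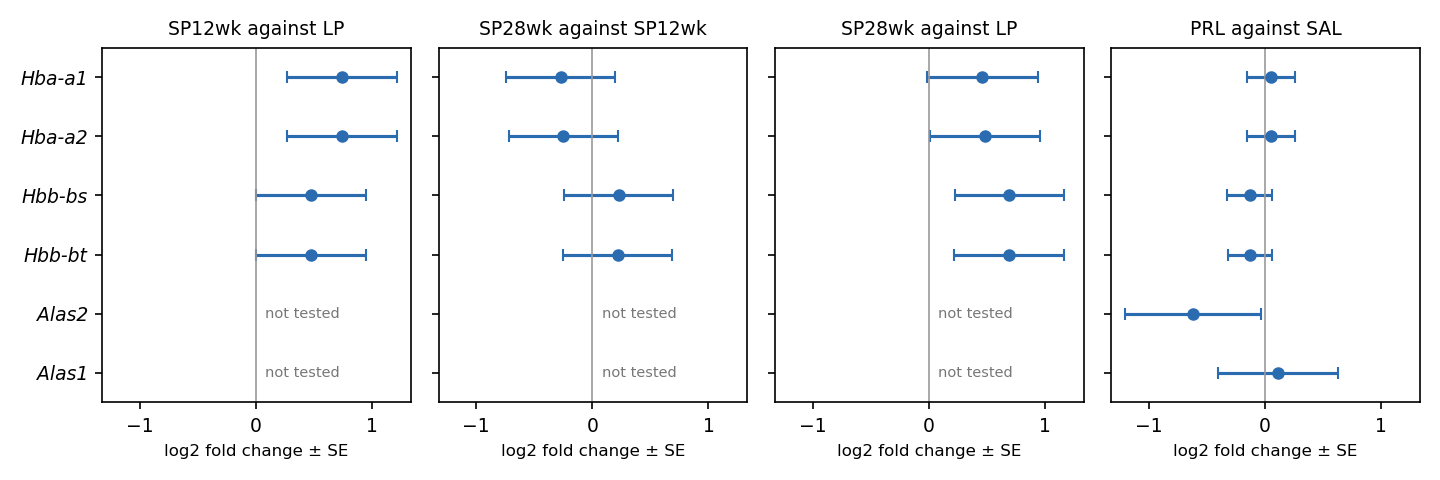
Log2 fold change with its standard error (bars) of each gene in the 4 comparisons, from the edgeR fits over all genes. Alas2 and Alas1 were not tested in experiment 1, and none of the 18 values passed an adjusted p of 0.05.

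The globin share of a library, alpha plus beta, was 1.16% ± 0.327 in LP, 1.61% ± 0.562 in SP12wk, 1.43% ± 0.269 in SP28wk, 0.648% ± 0.155 in SAL and 0.647% ± 0.192 in PRL (SD). Over the 12 libraries of experiment 1 it ran from 0.716% to 2.22%, a 3.11-fold range, and over those of experiment 2 from 0.445% to 0.975%, a 2.19-fold range. Only the upper end of experiment 2 reached into the range of experiment 1. Without LP replicate 2, the mean globin share was higher in SP12wk than in LP by 0.434 percentage points in place of 0.447, and in SP28wk than in LP by 0.258 in place of 0.272. The sum over all 4 rows, which counts most reads on both copies, ran from 1.42% to 4.41% and from 0.890% to 1.95%. Leaving these rows out of the totals raised the CPM of every other gene by a factor of 1.014 to 1.046 in experiment 1 and 1.009 to 1.020 in experiment 2, so that differences in globin moved the CPM of other genes between any pair of libraries by a factor of at most 1.031 and 1.011.

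Alpha and beta shares were correlated in experiment 2. Over its 12 libraries the shares of Hba-a1 and Hbb-bs gave Pearson's r = 0.874 (permutation p = 2.2e-04, adjusted over 7 relations p = 0.00154) and Spearman's rho = 0.811 (permutation p = 0.00239, adjusted p = 0.0167). Within SAL r was 0.928 and within PRL 0.877, and r was 0.696 without PRL replicate 6 and SAL replicate 1, the libraries farthest from the median of Hba-a1. The order of single libraries was not the same for both genes, since PRL replicate 1 lay above PRL replicate 4 in Hba-a1 (0.246% and 0.237%) and below it in Hbb-bs (0.384% and 0.506%). The share of either gene and of the other have the library total in common.

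Experiment 1 did not show this relation across all libraries. There r was 0.360 (permutation p = 0.251, adjusted p = 0.585) and rho 0.385 (permutation p = 0.218, adjusted p = 0.382), and without LP replicate 3 and SP12wk replicate 4 r was -0.077. LP replicate 2 was the library farthest from the rest, with 165 reads of Hba-a1 and 35 of Hbb-bs. Its beta share of 0.196% had a 95% Wilson interval of 0.141% to 0.273%, below the 0.372% of the next library, whereas its alpha share of 0.925% was exceeded in 3 of the other 11 libraries. Without it, an alternative added after the data were seen, r was 0.669 (permutation p = 0.0246) and rho 0.609 (permutation p = 0.0518).

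**Figure D3:**
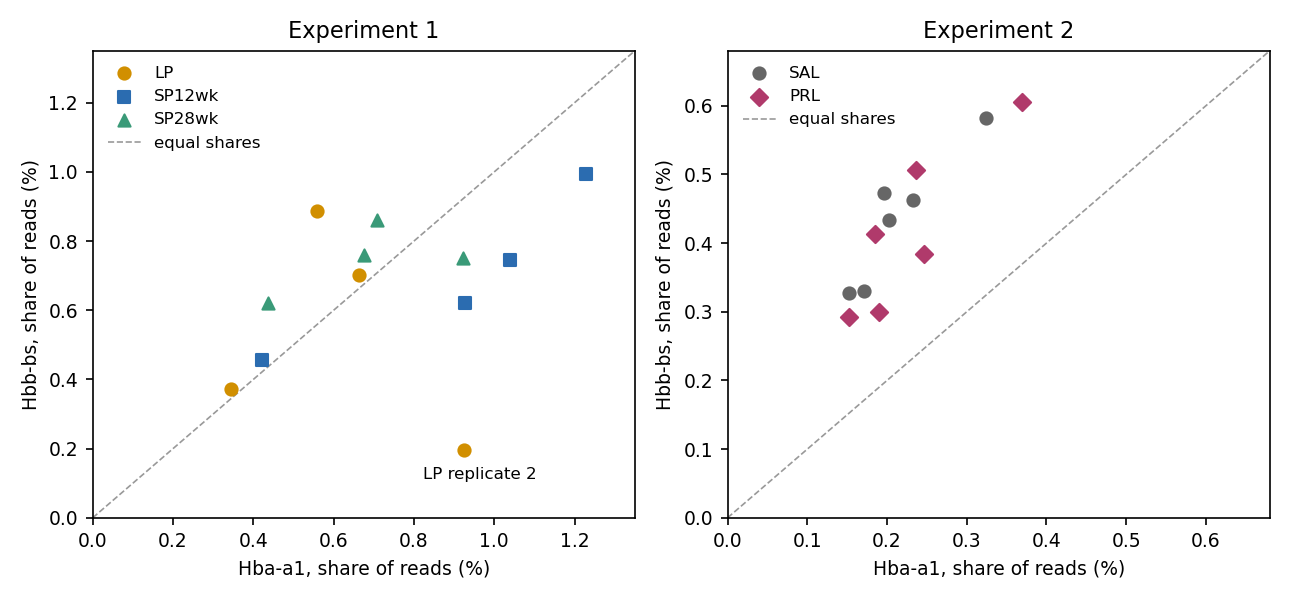
Share of reads (%) of Hbb-bs against that of Hba-a1, 1 point per library, in experiment 1 (left) and experiment 2 (right), with the dashed line at equal shares. All libraries of experiment 2 lie above the line, at 1.56 to 2.41 beta reads per alpha read, and LP replicate 2 lies far below it at 0.212.

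The balance of the chains differed in level between the experiments. Beta reads per alpha read ranged from 0.212 to 1.58 in experiment 1, with a median of 1.07, and from 0.670 to 1.58 without LP replicate 2. In experiment 2 the ratio ranged from 1.56 to 2.41 with a median of 1.96, so that only LP replicate 4 of experiment 1, at 1.58, reached the range of experiment 2. In LP the ratios were 1.06, 0.212, 1.08 and 1.58, in SP12wk 0.670, 0.718, 1.08 and 0.809, and in SP28wk 0.815, 1.12, 1.21 and 1.42. A ratio of reads is not corrected for length or for the match of hamster reads to either mouse gene. Sex, injection, flow cell, depth and light history all differ between the experiments, and their parts in this difference cannot be told apart.

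By likeness across libraries, the beta globins were nearest to Hba-a1 in experiment 2, after its copy Hba-a2, which repeats the same reads. Among 2980 genes with a median count of at least 10, the highest Spearman correlations with its share were those of Hba-a2 (0.993), Hbb-bs and Hbb-bt (0.811 each), Gak, a kinase of clathrin uncoating (0.797), and Urah, a hydrolase of urate breakdown (0.762), beside a median of -0.056 over these genes. In experiment 1, with 464 such genes, they were those of Hba-a2 (0.993), Micos10, a subunit of the mitochondrial cristae complex (0.643), the tubulin Tuba1b (0.636), the folate receptor Folr1 (0.629) and Cd63, a tetraspanin of late endosomes (0.608). Hbb-bs came at position 58 there. The non-globin genes of experiment 1 had correlations of 0.049, 0.007, 0.196 and 0.014 in experiment 2. In the other direction, Gak and Urah had 0.392 and 0.116 in experiment 1, at median counts of 1 and 0 there. All points share the library total as their denominator.

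The erythroid synthase was nearly absent by reads. Alas2 had 1 read in experiment 1, in SP28wk replicate 2, and 0 in the other 11 libraries. In experiment 2 it had 3, 8, 4, 6, 3 and 1 reads in SAL and 4, 0, 2, 7, 0 and 4 in PRL, in order of replicate. In SAL each library had a read, and in PRL replicates 2 and 5 had none, where 3 counts correspond to 3.97 and 17.2 CPM. The level was 11.8 ± 6.60 CPM in SAL and 9.69 ± 11.9 CPM in PRL (SD, n = 6), with PRL replicate 4 at 32.2 CPM (95% Wilson interval 15.6 to 66.4 CPM) and the next at 11.3 CPM. The log2 fold change from SAL to PRL was -0.62 with a standard error of 0.584 (edgeR, adjusted p = 0.999), and the exact permutation test of the shares gave p = 0.725. Without PRL replicate 2 it was -0.16 (edgeR, adjusted p = 1.00), without PRL replicate 4 -1.28 (edgeR, unadjusted p = 0.0440, adjusted p = 0.909), and with limma-voom -1.29 (adjusted p = 0.896).

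Depth limits what experiment 1 can show of this gene. The libraries of experiment 2 held 42 Alas2 reads beside 28883 globin reads, which is 1.45 per 1000. At that rate the 4539 globin reads of experiment 1 would come with 6.60 Alas2 reads, and at the rate per library total with 2.99, against the 1 read found. In experiment 2 no relation of Alas2 with the globins passed a permutation test. With Hba-a1, r was 0.083 (permutation p = 0.797, adjusted p = 0.797) and rho 0.249 (permutation p = 0.430, adjusted p = 0.602). With Hbb-bs, r was 0.362 (permutation p = 0.249, adjusted p = 0.585) and rho 0.539 (permutation p = 0.0730, adjusted p = 0.255). Without PRL replicate 6 and SAL replicate 1, r was 0.259 with Hba-a1 and 0.603 with Hbb-bs.

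The housekeeping synthase was as low. Alas1 had 4, 6, 0, 7, 4 and 2 reads in SAL and 4, 17, 0, 2, 5 and 1 in PRL. Replicate 3 had none in either group, and the most reads lay in PRL replicate 2, the deepest library. By CPM, PRL replicates 5 and 2 were highest at 28.7 and 22.5 CPM and the groups overlapped, with 9.70 ± 5.65 CPM in SAL and 11.7 ± 11.4 CPM in PRL (SD, n = 6). The log2 fold change was 0.11 with a standard error of 0.518 (edgeR, adjusted p = 0.999), and the exact permutation test gave p = 0.719. At the rate of experiment 2, experiment 1 would hold 3.71 Alas1 reads in all.

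**Figure D4:**
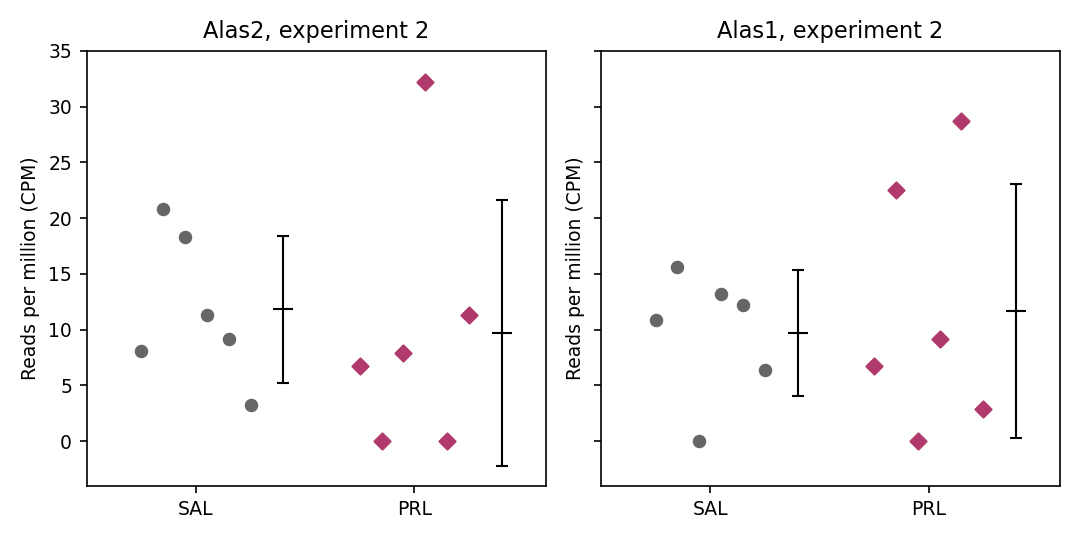
Alas2 (left) and Alas1 (right) in CPM in each library of experiment 2, 1 point per library, with the group mean and SD as a black bar. Alas2 is highest in PRL replicate 4 at 32.2 CPM and has no read in 2 PRL libraries.

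The other genes of heme synthesis were measured at more reads. In experiment 2, Urod, uroporphyrinogen decarboxylase, had 482 reads and Alad, the second enzyme of the pathway, 399, while Fech, which puts the iron into heme, had 12.8 by estimated count. Of the 9 genes of the pathway, both synthases included, 8 were tested between PRL and SAL and 0 passed in either direction, beside 0% of all genes tested. The log2 fold change of 5 of the 8 was above 0, where 52.6% of all genes tested lay above 0, with a median of 0.11 beside 0.03. In experiment 1 only Urod (43 reads) and Alad (37 reads) were tested and neither passed, with values of 0.38 and 0.09 between SP12wk and LP (edgeR, adjusted p = 0.914 and 1.00). Alad averaged 80.5 ± 27.0 CPM with vehicle and 87.7 ± 31.6 CPM with PRL, and Urod 101 ± 26.3 CPM and 114 ± 23.1 CPM (SD, n = 6).

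Genes of heme transport and breakdown gave no call either. Of 12 genes, 5 were tested in experiment 1 and 9 in experiment 2, with 0 past the threshold in each comparison. Of all genes tested, 0.0197% to 0.216% passed in experiment 1 and 0% in experiment 2, so that these few genes cannot be set apart from that background. The biliverdin reductases Blvrb and Blvra had 792 and 713 reads in experiment 2, the constitutive heme oxygenase Hmox2 had 437 and the porphyrin exporter Abcg2 245, while the inducible heme oxygenase Hmox1 had 28. From SAL to PRL the list had 6 values above 0 and 3 below, where 52.6% of all genes tested lay above 0. Its median log2 fold change was 0.10 beside 0.03 over all genes tested.

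Red cell genes other than the globins were mostly not listed in experiment 1 and mostly listed in experiment 2, the deeper experiment. Of the 15960 genes listed in either experiment, 9681 were listed in experiment 1 and 15842 in experiment 2. Of 29 genes listed for red cells, 9 were in the table of experiment 1 and 20 in that of experiment 2, and the defining genes Ahsp, the chaperone of free alpha globin, Gata1, an erythroid transcription factor, and Epb42, a protein of the red cell membrane skeleton, were in neither. Those with most reads in experiment 2 were Prdx2 (2809), Car2 (1046), Blvrb (792) and Slc25a39 (389), which cells of other types also express. Slc4a1, the band 3 anion exchanger of red cells and of collecting duct cells, had 18 reads, and Klf1, the erythroid transcription factor that drives adult beta globin, had 85. None of the genes tested (6 in experiment 1, 11 in experiment 2) passed the threshold in any comparison, beside 0% to 0.216% of all genes tested. The summed level of the list was 450 to 1204 CPM in the libraries of experiment 1 and 964 to 1420 CPM in those of experiment 2.

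Klf1 stood at 22.3 ± 7.88 CPM in SAL and 14.2 ± 4.49 CPM in PRL (SD, n = 6), a log2 fold change of -0.57 with a standard error of 0.355 (edgeR, adjusted p = 0.999). In experiment 1 it had 3 reads, all in SP12wk. Car2, carbonic anhydrase 2, which is also a collecting duct enzyme, averaged 332 ± 123 CPM (LP), 147 ± 123 CPM (SP12wk) and 311 ± 94.1 CPM (SP28wk) over 4 libraries each (SD), with log2 fold changes of -1.09 and then 1.44 (edgeR, adjusted p = 0.669 and 0.665).

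Markers of other blood cells and of vessels were low beside the globins. Leukocyte genes had 1.9 to 8.8 reads per 1000 globin reads in the groups of experiment 1 and 19.0 to 20.1 in experiment 2, with Cd74 the highest at 186 reads in experiment 2 and Ptprc, the gene of the leukocyte antigen CD45, listed in neither table. Platelet genes had 1.0 to 2.6 and 6.3 to 6.9 reads per 1000 globin reads, led by Itga2b (90 reads) and Pf4 (74 reads), and endothelial genes 4.9 to 11.4 and 27.7 to 28.4, led by Egfl7 (207 reads). By summed level, leukocyte genes ranged over the libraries from 0 to 117 CPM (LP), from 0 to 56.5 CPM (SP12wk) and from 83.0 to 139 CPM (SP28wk) in experiment 1, and from 89.6 to 169 CPM (SAL) and 63.3 to 207 CPM (PRL) in experiment 2. The leukocyte values of experiment 1 rest on 5 (LP), 3 (SP12wk) and 17 (SP28wk) reads per group, where 1 read in a library makes 17.4 to 63.7 CPM. In the same order, the platelet rates rest on 1, 2 and 5 reads and the endothelial rates on 10, 8 and 22. Few of these genes could be tested in experiment 1, namely 1 of 16 leukocyte, 1 of 10 platelet and 5 of 10 endothelial genes. In experiment 2, 7, 3 and 10 were tested. None passed the threshold in any of the 4 comparisons, beside 0% to 0.216% of all genes tested, and their part in the globin values was not tested. Of 12 genes of the erythropoietin and oxygen response, 6 and 8 were tested with 0 calls, and the highest in experiment 2 was Bnip3 with 1346 reads. Epo, the gene of erythropoietin, was listed in neither experiment. Its receptor gene Epor had 1 read, in experiment 2, so that neither of them was tested.

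Of the other globins, embryonic chains were not listed, and myoglobin was the one with most reads. Mb, the oxygen store of muscle, had 1, 0, 0, 1, 3 and 12 reads in SAL and 5, 0, 9, 14, 31 and 30 in PRL, or 8.70 ± 14.9 CPM and 61.9 ± 65.5 CPM (SD, n = 6). The groups overlapped, since PRL replicate 2 had no read and SAL replicate 6 had 12. Its log2 fold change of 2.48, with a standard error of 0.707, had an unadjusted p of 0.00114 and an adjusted p of 0.285 by edgeR, and the exact permutation test of the shares gave p = 0.0628. Without SAL replicate 6 the log2 fold change was 3.93 (edgeR, adjusted p = 0.00400), and over the other alternatives the adjusted p ran from 1.13e-06 to 1.00, where DESeq2 gave none. The share of Mb followed that of Hba-a1 with r = 0.080 over the 12 libraries. In experiment 1 it had 1 read, and cytoglobin, with 13 reads in experiment 2, had a log2 fold change of 0.42 (edgeR, adjusted p = 0.999).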

How the data were processed

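Reads were basecalled with Guppy, trimmed with Porechop, filtered with Filtlong and aligned with Minimap2 to the mouse genome. For each mouse RefSeq transcript and library the authors deposited an estimated count, not normalized. The submitters' processing notes also name Salmon, without its role. How reads shared by several transcripts were counted is not given. The methods name a direct cDNA kit and the labels a PCR-cDNA kit, with the same catalogue numbers.

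For each gene the transcript with the highest total was kept, since counts repeat across transcripts, and shares and CPM were taken of the library total over these. Rounded counts were fitted with edgeR 4.0.16 in R 4.3.3 (quasi-likelihood test, TMM scaling, 1 fit per experiment, no covariates). Genes entered with counts in 4 or more libraries (experiment 1) or 6 or more (experiment 2), and p-values were adjusted over all genes tested by Benjamini-Hochberg (threshold 0.05). Standard errors are |log2 fold change| over the square root of F. Single shares were compared by two-sided exact permutation tests and relations by 100000 permutations (Python 3.11.15, SciPy 1.17.1). Alternatives were DESeq2 1.42.0, limma-voom (limma 3.58.1), no filter and a stricter filter, no TMM scaling, totals without globins, added transcripts, a replicate block and each library left out. The procedures were tested on simulated data. Wilson intervals and limits of 3 counts cover counting error only. The p-values of group comparisons set a difference against the spread between libraries, 1 per animal.

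The genes and gene lists were chosen with earlier results of these data known. The text names the 6 genes, up to 4 genes of each list with most reads, every list gene past the threshold, and the 5 genes most alike Hba-a1 by Spearman correlation in each experiment. Ahsp, Gata1, Epb42, Slc4a1, Klf1, Ptprc, Hmox1, Fech, Epo and Epor were added after their values were seen. Some genes of the lists are not reported here by name.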

Additional observations from a re-analysis of the deposited data

Results flagged for a closer look

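Alas2 in PRL had 1 library far from the others. PRL replicate 4 held 0.00322% of its reads (7 reads), and the next library 0.00113%, a gap of 0.648 of the range of the group. Among 34 groups of values tested in this way, chance flags about 1 in 20, and 7 reads leave a wide counting interval of 0.00156% to 0.00664%. Without this library the log2 fold change of Alas2 from SAL to PRL went from -0.62 to -1.28 (edgeR, unadjusted p = 0.0440, adjusted p = 0.909).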

How the results depend on the processing

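None of the 6 genes passed the threshold under any alternative that gave it an adjusted p (DESeq2 gave none for Alas2 and Alas1). Adjusted p-values of the genes ranged from 0.545 to 1.00 between SP12wk and LP, 0.703 to 1.00 between SP28wk and SP12wk, 0.148 to 0.996 between SP28wk and LP, and 0.736 to 1.00 between PRL and SAL. Of the log2 fold changes under alternatives, 348 kept their direction and 10 reversed, and of the differences of shares 204 and 16. The difference in globin share moved by less than 1 pooled SD between libraries in all 52 alternatives. Of these, 4 were added after the data were seen, with genes of identical counts counted once in the library total. The count of 52 does not show stability, since even a change of sign counted as unmoved. That SD exceeded the size of the difference in globin share in each of the 4 comparisons (0.460 beside 0.447 percentage points between SP12wk and LP). With a library left out that difference ran from 0.242 to 0.691 percentage points between SP12wk and LP, 0.123 to 0.397 between SP28wk and LP, and across 0 from -0.419 to 0.0292 between SP28wk and SP12wk and from -0.0669 to 0.0505 between PRL and SAL. Counts of all genes called depended on the processing. Between SP12wk and LP, 0 genes passed without a filter, with a stricter filter, with DESeq2, with limma-voom, without TMM, with transcripts added or with a replicate block, and 0 to 9 with a library left out. Between SP28wk and SP12wk the count was 2 with the stricter filter, 2 with DESeq2, 0 with transcripts added and 2 to 12 with a library left out. Between SP28wk and LP it was 5, 2, 30 (limma-voom), 0 and 10 to 52. Between PRL and SAL it was 92 without a filter, 1 with transcripts added, 52 with the replicate block and 0 to 50 with a library left out; Mb passed without a filter and with the block. Samples with the same number did not pair, since 3 of 12 pairs in experiment 1 and 2 of 6 in experiment 2 correlated above 0.1, and 4 and 3 of 12 libraries correlated best with their own number. Alas1 between PRL and SAL reversed with limma-voom (log2 fold change -0.12). With a library left out it ran from -0.51 to 0.29, Alas2 from -1.28 to -0.16, Hba-a1 from -0.17 to 0.21 and Hba-a2 from -0.16 to 0.22, and between SP28wk and SP12wk Hbb-bs from -0.0012 to 0.50 and Hbb-bt from -0.0048 to 0.49. Differences of shares, in percentage points, ran between PRL and SAL from -0.0111 to 0.0391 (Hba-a1), -0.0108 to 0.0392 (Hba-a2), -0.0558 to 0.0114 (Hbb-bs), -0.0551 to 0.0119 (Hbb-bt) and -0.000146 to 0.000428 (Alas1). They ran between SP28wk and LP from -0.0302 to 0.164 (Hba-a1) and -0.0175 to 0.167 (Hba-a2), and between SP28wk and SP12wk from -0.0398 to 0.140 (Hbb-bs) and -0.0413 to 0.135 (Hbb-bt). The causes were not tested. Depth limits the ALAS genes most, with at most 17 reads in a library.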
